A study of Mus musculus with 2 samples.

Results

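Zbtb16, Fkbp5 and Tsc22d3, genes that glucocorticoid hormones induce in many tissues, were followed with Nr3c1, Hsd11b1, Sgk1, Cebpd and Ddit4 through the cell classes of mouse lung. The 8 genes were chosen by symbol out of 32286 measured features, with differences between these libraries already known, so their levels and library ratios are a description and no test was made of them. Cells came from the lungs of BALB/c mice with 4T1 tumours, a mouse mammary carcinoma line, growing in the mammary fat pad, 14 days after inoculation. One group of mice received a control IgG antibody and the other the S100A4-11 antibody, and each group gave 1 library. The labels do not state how many animals stood behind a library, their age, or the dose and schedule of the antibodies. The protocol text speaks of tumour tissue where the other labels say lung, and clusters carried the markers of lung capillary, alveolar and stromal cells. No cluster was named as carcinoma cells. In the clusters named as type 2 alveolar, type 1 alveolar and airway epithelial cells, carcinoma cells were the second candidate by markers.

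Glucocorticoids cross the plasma membrane and bind the glucocorticoid receptor, encoded by Nr3c1, which is held by Hsp90 chaperones until the hormone is bound and then acts in the nucleus on response elements of its target genes. Hsd11b1 encodes the enzyme that regenerates active hormone from its inert form inside cells. Zbtb16 (also known as PLZF, a zinc finger transcription factor), Fkbp5 (a co-chaperone that lowers the receptor's affinity for hormone) and Tsc22d3 (GILZ, which dampens inflammatory signalling) are classical induced genes. Sgk1, a kinase of ion transport and survival, Cebpd, a transcription factor of acute responses, and Ddit4, an inhibitor of mTOR signalling, are also induced, but by stress, cytokines or low oxygen as well.

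Promoters of the induced genes are shown first because the palindrome that the receptor binds can be read in 1 of them. RefSeq promoter windows (build GRCm38.p6, the 250 bases before a start site) were matched by symbol for Fkbp5 (1 window), Tsc22d3 (3), Hsd11b1 (1), Sgk1 (6) and Ddit4 (1). No window carried the symbol Zbtb16 or Cebpd, and Nr3c1 was not searched, so nothing can be read for these genes. Both strands were searched for the palindrome of AGAACA, any 3 bases and TGTTCT, and for its arms, AGAACA or TGTTCT, which are also counted inside a palindrome. The palindrome occurred in 3 of 32851 windows (0.00913%), and 1 of the 3 belonged to Sgk1. An arm occurred in 5284 windows (16.1%), in 3 of the 6 Sgk1 windows, in 1 of the 3 Tsc22d3 windows, and in none of the windows of Fkbp5, Hsd11b1 and Ddit4. A match is a run of letters, not a measured binding site, and a window without one says nothing about elements elsewhere. The windows are printed 5′ to 3′ on the strand of the gene, with the matches in capitals.
Sgk1, chr10:21993640-21993889, plus strand: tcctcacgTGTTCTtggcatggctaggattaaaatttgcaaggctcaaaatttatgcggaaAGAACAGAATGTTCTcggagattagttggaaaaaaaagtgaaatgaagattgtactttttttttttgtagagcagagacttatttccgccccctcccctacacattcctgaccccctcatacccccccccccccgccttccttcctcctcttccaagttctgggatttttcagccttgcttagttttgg
Tsc22d3, chrX:140600523-140600772, minus strand: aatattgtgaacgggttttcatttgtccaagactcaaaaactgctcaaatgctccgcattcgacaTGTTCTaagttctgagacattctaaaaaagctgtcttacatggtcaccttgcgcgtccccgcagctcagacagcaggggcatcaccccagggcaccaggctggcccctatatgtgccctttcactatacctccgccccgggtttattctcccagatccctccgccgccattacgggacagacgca
Fkbp5, chr17:28486150-28486399, minus strand: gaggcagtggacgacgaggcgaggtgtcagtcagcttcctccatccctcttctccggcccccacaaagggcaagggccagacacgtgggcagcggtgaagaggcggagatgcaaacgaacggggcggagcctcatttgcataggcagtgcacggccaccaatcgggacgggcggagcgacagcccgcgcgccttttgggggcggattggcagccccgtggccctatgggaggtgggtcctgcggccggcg

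In the GENCODE M21 annotation of GRCm38, Zbtb16 spans 182 kb on chromosome 9 (48654297 to 48836222, minus strand) and overlaps no other gene. Fkbp5 spans 118 kb on chromosome 17 (28399094 to 28517527, minus strand) and overlaps 2 annotated genes on its own strand, so reads from these could not be told apart by position alone. Tsc22d3 spans 61.1 kb on chromosome X (140539528 to 140600659, minus strand) and Sgk1 118 kb on chromosome 10 (21882184 to 21999903, plus strand). Hsd11b1 spans 42.4 kb on chromosome 1 (193221634 to 193264075, minus strand) and overlaps Gm38118 on the same strand. Cebpd (3.75 kb) and Ddit4 (2.17 kb) are short genes.

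After filtering, 13658 IgG cells and 11750 S100A4-11 cells remained, with 78928829 and 58863966 UMIs (unique molecular identifiers, each counting 1 captured transcript) and medians of 4028 and 3661 UMIs a cell. They fell into 36 clusters, and 18 cell classes had at least 100 cells in each library. Orders of levels are given among these 18 classes. A class name ends in "-like" where only marker genes gave the name. CD4 and CD8 T cells shared a class. The interstitial macrophage-like class also held dendritic cell genes, and innate lymphoid genes were among the leading genes of the regulatory T cell-like class. The libraries shared 247 kept barcodes, and 26 of these (10.5%) had the same class in both, against 8.99% if classes were unrelated. Levels are CPM, the UMIs of a gene per 1000000 UMIs of the class, and ratios are S100A4-11 over IgG. Intervals in parentheses are exact 95% counting intervals, which leave out variation between cells, animals and preparations. A gene with at least 50 UMIs over both libraries was called higher or lower at 1.5-fold with an interval excluding 1.

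Zbtb16 stood higher in the stromal, endothelial and type 2 alveolar epithelial classes than in the leukocyte classes. In the IgG library it was highest in alveolar fibroblast-like cells, at 831 CPM (802 to 860), followed by general capillary endothelial-like cells at 436 (423 to 449) and aerocyte capillary endothelial-like cells, the thin-walled capillary cells of gas exchange, at 327 (313 to 341). Pericyte-like cells held 263 CPM (241 to 286) and smooth muscle cell-like cells 226 CPM (206 to 247), and these intervals overlapped. Smooth muscle, type 2 alveolar epithelial-like (203 CPM, 191 to 215) and large-vessel endothelial-like cells (193 CPM, 175 to 212) also overlapped. Adventitial fibroblast-like cells were lowest of the structural classes, at 118 CPM (101 to 138). Among leukocytes, regulatory T cell-like (65.8 CPM) and NK cell-like cells (62.1 CPM) stood first, nonclassical monocyte-like cells held 40.4 CPM, and the other 7 classes lay between 6.35 and 24.6 CPM.

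In the S100A4-11 library the levels were lower in every one of the 17 classes with enough UMIs. Alveolar fibroblast-like cells held 495 CPM (465 to 527), general capillary endothelial-like cells 190 (181 to 199) and aerocyte-like cells 184 (172 to 197), so that the capillary classes, separate in the IgG library, now overlapped. Pericyte-like cells held 146 CPM, large-vessel endothelial-like cells 125, smooth muscle cell-like cells 120, type 2 alveolar epithelial-like cells 93.1 and adventitial fibroblast-like cells 79.4. Regulatory T cell-like cells (57.0 CPM) and NK cell-like cells (38.2 CPM) were again the highest leukocytes. Thus Zbtb16 was called lower in 13 of 17 classes and higher in 0.

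Among all tested features the background of such calls differed by class, and since the genes were chosen knowing this contrast nothing is read from the comparison. The share called lower was 4.5% in general capillary endothelial-like, 3.21% in aerocyte-like and 2.14% in large-vessel endothelial-like cells, with 1.1%, 1.21% and 2.05% called higher. In stromal classes it was 7.81% (alveolar fibroblast-like), 3.56% (adventitial fibroblast-like), 2.81% (pericyte-like) and 5.34% (smooth muscle cell-like), with 1.75%, 2.04%, 2.19% and 2.34% higher. Type 2 alveolar epithelial-like cells had the highest share called lower, 12.6%, with 2.11% higher. In lymphoid classes it was 3.68% (B cell-like), 2.66% (CD4 or CD8 T cell-like), 2.83% (NK cell-like) and 5.31% (regulatory T cell-like), with 1.24%, 1.65%, 1.56% and 7.12% higher. In macrophage and monocyte classes it was 3.02% (alveolar macrophage-like), 2.76% (interstitial macrophage-like), 1.73% (classical monocyte-like) and 4.41% (nonclassical monocyte-like), with 0.999%, 2.58%, 1.59% and 1.36% higher. Neutrophil-like and immature granulocyte-like cells had 5.38% and 2.14% lower and 1.21% and 3.92% higher.

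The largest fall by interval was in general capillary endothelial-like cells, 2.30-fold (2.17 to 2.44). In these cells 62.5% of IgG cells and 42.7% of S100A4-11 cells had at least 1 Zbtb16 UMI, at median depths of 3358 and 3428 UMIs, and 21.1% and 11.4% after thinning to 500 UMIs. In neutrophil-like cells, a type in which free RNA is the background, the shares were 4.31% and 2.37% at median depths of 3784 and 3571 UMIs. Zbtb16 was 2.18-fold (1.85 to 2.57) lower in type 2 alveolar epithelial-like cells, 1.88-fold (1.56 to 2.28) in smooth muscle cell-like cells and 1.80-fold (1.46 to 2.23) in pericyte-like cells. The type 2 alveolar and pericyte-like levels are set beside those that fibroblast or capillary RNA could bring further below. It was 1.78-fold (1.64 to 1.93) lower in aerocyte-like cells, 1.68-fold (1.56 to 1.80) in alveolar fibroblast-like cells and 1.55-fold (1.31 to 1.83) in large-vessel endothelial-like cells. The large-vessel call ended with each library clustered alone (ratio 0.683). Adventitial fibroblast-like cells, at 1.49-fold (1.09 to 2.05), lay just short of the call, and regulatory T cell-like cells had a ratio of 0.867 (0.580 to 1.29). In pericyte-like cells 5 cells held 48.6% of the S100A4-11 UMIs of the gene.

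**Figure D1:**
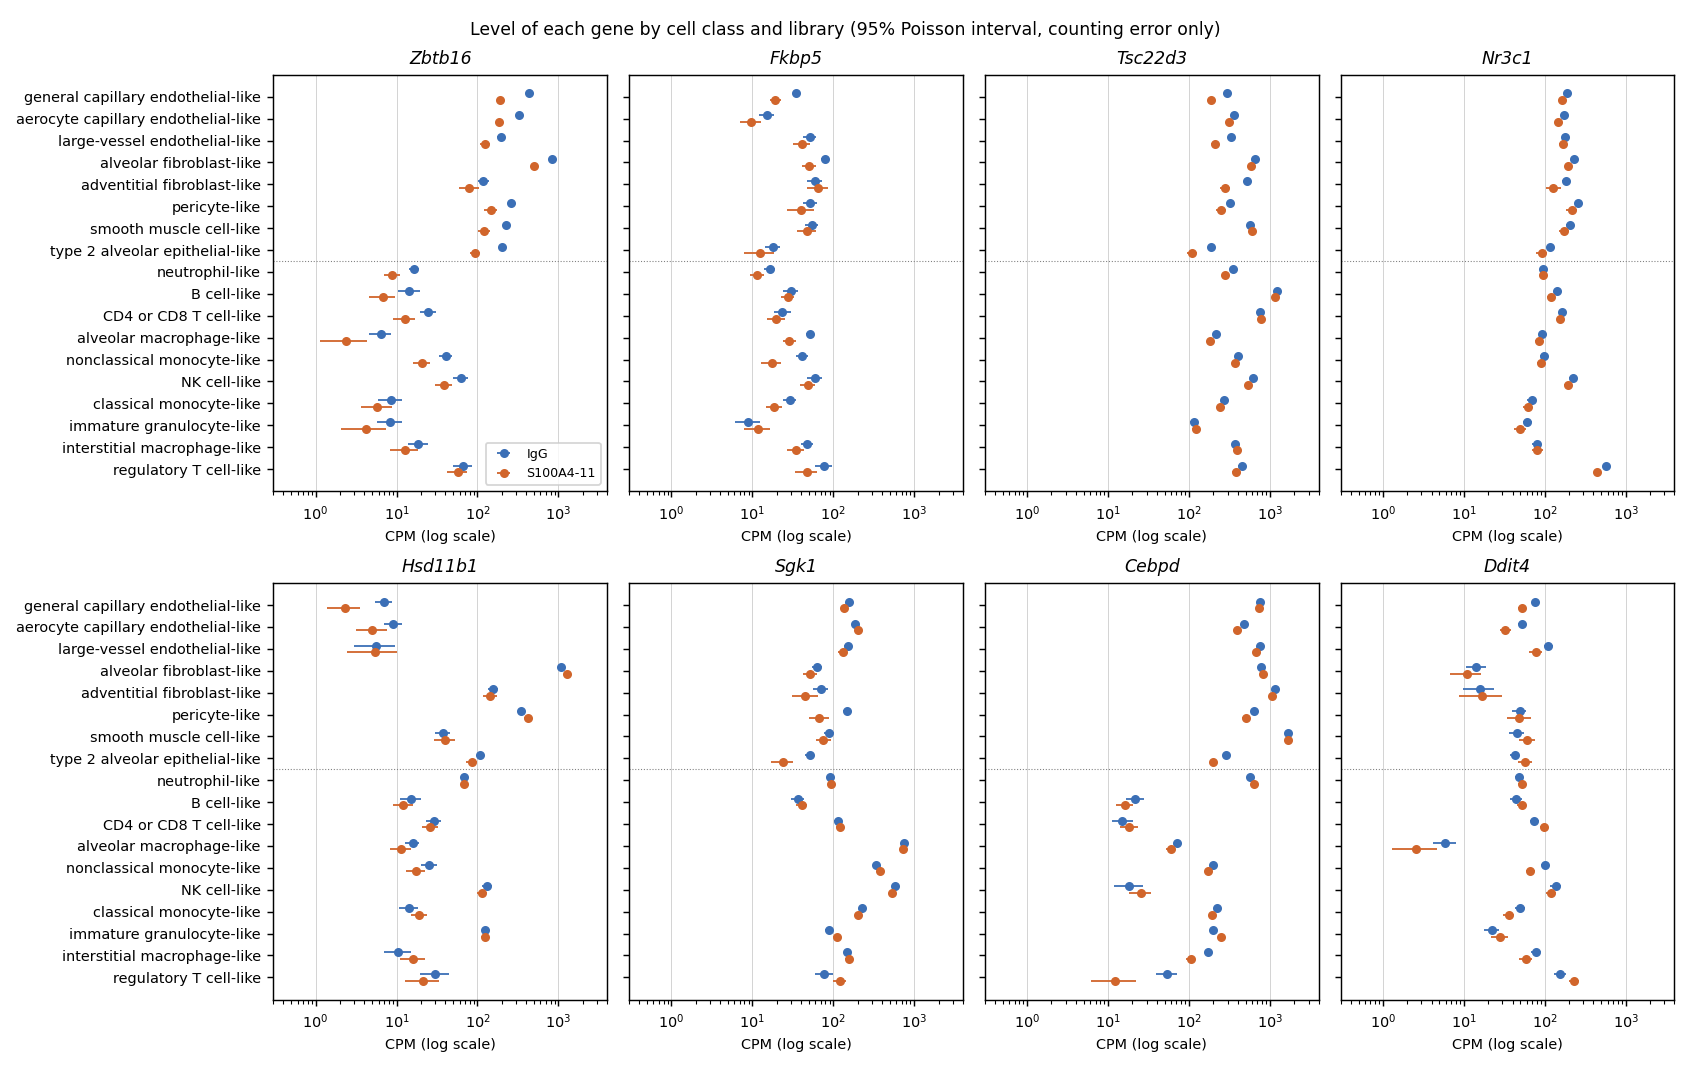
Level of each of the 8 genes in 18 cell classes, in CPM on a log axis, for the IgG library (blue) and the S100A4-11 library (orange), with exact 95% Poisson intervals; structural classes lie above the dotted line and leukocytes below it. Zbtb16 is highest in alveolar fibroblast-like cells (831 and 495 CPM), and its orange points lie left of the blue in every class.

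Within classes, the level of Zbtb16 also differed between clusters. General capillary endothelial-like cells formed 2 clusters. Cluster 0, led by Aplnr and Plvap, held Zbtb16 at 192 CPM in IgG and 106 CPM in S100A4-11. Cluster 3, led by Adgrl3, Pknox2 and Grik2, held it at 987 and 481 CPM. Among alveolar fibroblast-like cells, cluster 20 (led by Slc38a5, Slc36a2 and Mfap4) held 282 and 190 CPM and cluster 31 (Hs6st3, Fat3 and Unc5c) 2001 and 1757 CPM. Among aerocyte-like cells, cluster 14 (Ednrb and Chst1) held 243 and 164 CPM and cluster 1 (Gm10800, Gm10801 and Chl1) 1344 and 1052 CPM.

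The clusters rich in Zbtb16 shared another feature: a large part of their transcripts came from long genes. Genes spanning at least 100 kb, the 8 described here left out, gave 29.1% of UMIs in cluster 3, 36.5% in cluster 31 and 39.8% in cluster 1 of the IgG library, against 12.6%, 13.2% and 13.5% in clusters 0, 20 and 14. The nuclear RNA Malat1 stood at 12887, 27899 and 20812 CPM in the first 3 and at 4687, 7800 and 4645 CPM in the others. Over the 32 clusters with at least 50 IgG cells, log2(CPM + 1) of Zbtb16 and the long-gene share had r = 0.79 (rho 0.84), and over 31 clusters of the S100A4-11 library r = 0.78 (rho 0.82). Nr3c1, another long gene, had r of 0.50 and 0.58, Fkbp5 0.40 and 0.48, and Tsc22d3 -0.38 and -0.44. Sgk1, with an annotated span as long as that of Fkbp5, had r of -0.15 and -0.37. Of its 6 promoter windows, 1 ends at 21994665, near the end of the span at 21999903. A transcript from that start is much shorter than the span. These points share libraries and depth and are a description.

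**Figure D2:**
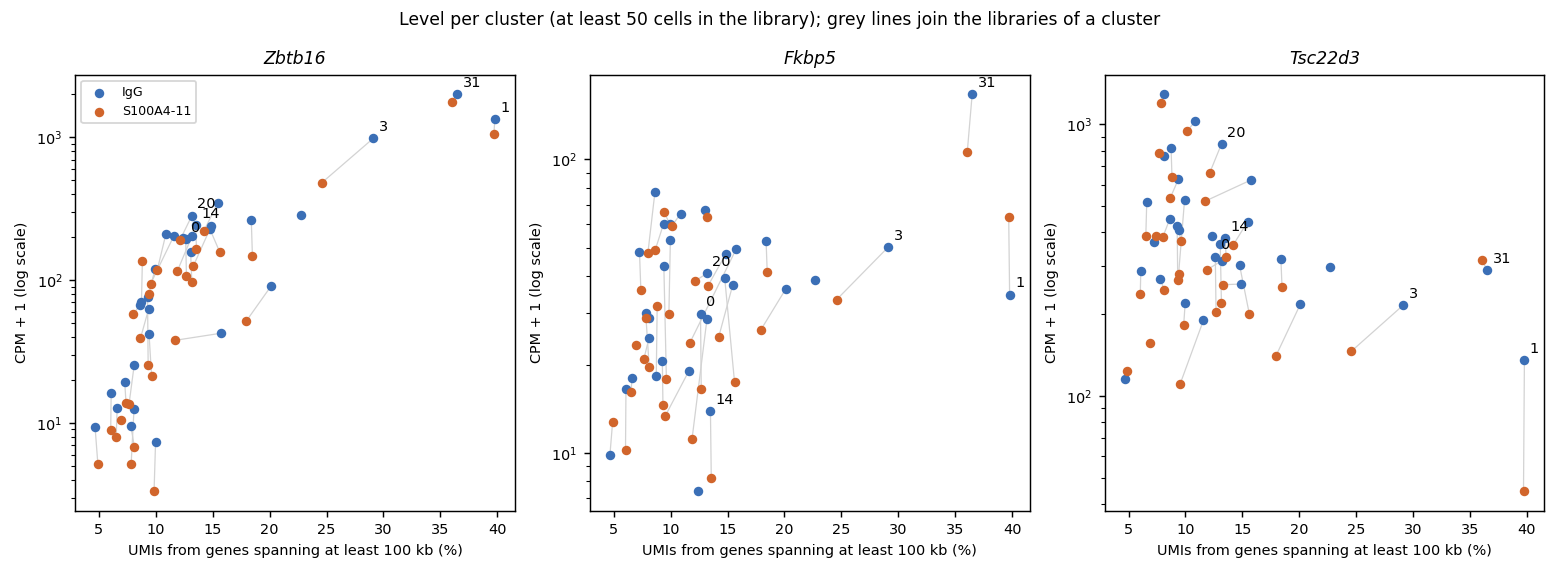
Level of Zbtb16, Fkbp5 and Tsc22d3 (CPM + 1, log axis) in each cluster against the percentage of the cluster's UMIs from genes spanning at least 100 kb, with IgG in blue, S100A4-11 in orange and a grey line joining a cluster's libraries. Clusters 1, 3 and 31 lie at the right and have the highest Zbtb16.

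The Zbtb16-rich clusters made up less of their class in the S100A4-11 library. Cluster 3 held 849 of 2238 IgG cells (37.9%) and 539 of 1882 S100A4-11 cells (28.6%) of its class. For cluster 31 the shares were 39.8% and 32.0%, and for cluster 1 they were 12.7% and 7.30%. Within single clusters the ratios were 0.551 (0.502 to 0.605) in cluster 0 and 0.487 (0.451 to 0.525) in cluster 3, so the fall in general capillary endothelial-like cells was present in both. In aerocyte-like cells they were 0.675 (0.614 to 0.741) in cluster 14, 0.782 (0.658 to 0.926) in cluster 1 and, on 40 UMIs, 0.323 (0.135 to 0.694) in cluster 2. In alveolar fibroblast-like cells they were 0.672 (0.582 to 0.775) in cluster 20 and 0.878 (0.806 to 0.955) in cluster 31. The shallow cluster 28 held 38 UMIs of the gene over both libraries, at 69.0 and 135.1 CPM. With the cluster mix of each class held at the IgG shares, an alternative added after the data were seen, Zbtb16 was 1.97-fold lower in general capillary endothelial-like cells, and 1.41-fold and 1.19-fold lower in aerocyte-like and alveolar fibroblast-like cells, no longer past 1.5-fold. With each library clustered alone, the alveolar fibroblast-like ratio turned to 1.56 (1.44 to 1.69). Of 22 clusters with at least 50 cells in each library and 50 UMIs of Zbtb16, 22 had a ratio below 1 and 12 were called lower, with a median ratio of 0.607.

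Long genes as a group also shifted between the libraries. In general capillary endothelial-like cells the 1527 tested genes of at least 100 kb had a median log2 ratio of -0.26 and 8.32% were called lower, against 0.09 and 4.41% for the 2743 genes under 10 kb; only 0.720% of the long genes had a lower ratio than Zbtb16. In alveolar fibroblast-like cells the medians were -0.33 and 0.15, and 8.46% of long genes lay below Zbtb16. In pericyte-like and large-vessel endothelial-like cells the long-gene median was -0.01 and 0.01, and Zbtb16 was called lower there too. The pericyte-like class also held capillary genes, and its 10 general capillary endothelial markers summed to 6699 CPM (IgG) and 6220 CPM (S100A4-11). In general capillary endothelial-like cells they summed to 13173 and 14072.5 CPM. How much of the pericyte-like Zbtb16 ratio came from capillary RNA was not tested. The part of the long-gene shift in the ratios of Zbtb16 and the other genes was not tested.

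Over all kept cells Zbtb16 stood at 190 CPM (187 to 193) and 85.2 CPM (82.9 to 87.6), and it was the 1 gene of the 8 called lower there, with 0 called higher, beside 7.89% and 2.75% of all features. Holding the class mix at the IgG shares gave a ratio of 0.523, against 0.448 with classes pooled. Alveolar fibroblast-like cells made up 5.65% of the IgG and 4.42% of the S100A4-11 cells, and B cell-like cells 6.43% and 11.6%. With the mix held at the level of clusters the ratio was 0.630.

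Levels of Zbtb16 in leukocytes were set beside the level that free RNA could bring, and the distance differed by class. The capillary genes Gpihbp1, Cldn5 and Plvap were found in neutrophil-like cells at 6.76% (IgG) and 5.43% (S100A4-11) of their level over all cells, and Zbtb16 at the same share would stand at 12.8 and 4.63 CPM, against 16.5 and 8.85 CPM measured. In interstitial macrophage-like cells the share that was higher, of capillary or of fibroblast genes, gave 17.2 and 9.41 CPM against 18.5 and 12.7 measured, and in nonclassical monocyte-like cells 29.6 and 5.09 CPM against 40.4 and 20.5. Alveolar macrophage-like cells held 6.35 and 2.35 CPM beside 5.56 and 1.67. CD4 or CD8 T cell-like cells held 24.6 and 12.5 CPM beside 10.7 and 3.80, and classical monocyte-like cells 8.47 and 5.81 CPM beside 3.44 and 2.31. After this background was subtracted, an alternative added after the data were seen, the ratio turned to 1.16 in neutrophil-like cells and 1.42 in nonclassical monocyte-like cells. In alveolar macrophage-like cells it moved from 0.370 to 0.864 and the call ended. It was 0.592 in B cell-like and 0.629 in CD4 or CD8 T cell-like cells, with 6.56 and 13.9 CPM left in the IgG library. The B cell-like call ended with doublets kept (0.594) and the T cell-like call at Leiden resolution 0.5 (0.681). NK cell-like cells (62.1 and 38.2 CPM, background 11.4 and 3.30) and regulatory T cell-like cells (65.8 and 57.0 CPM, background 10.7 and 6.61) stood well above it. PLZF is known as a factor of innate-like lymphocytes. The NK cell-like ratio was 0.615 (0.439 to 0.859) as measured and 0.689 after subtraction, no longer past 1.5-fold. In type 2 alveolar epithelial-like cells, fibroblast genes stood at 120% and 125% of their level over all cells. Zbtb16 at that share would stand at 227 and 107 CPM, against 203 and 93.1 measured. In pericyte-like cells capillary genes stood at 181% and 171%, which gave 344 and 146 CPM against 263 and 146 measured. The part of such RNA in the Zbtb16 ratios of these classes was not tested.

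**Figure D3:**
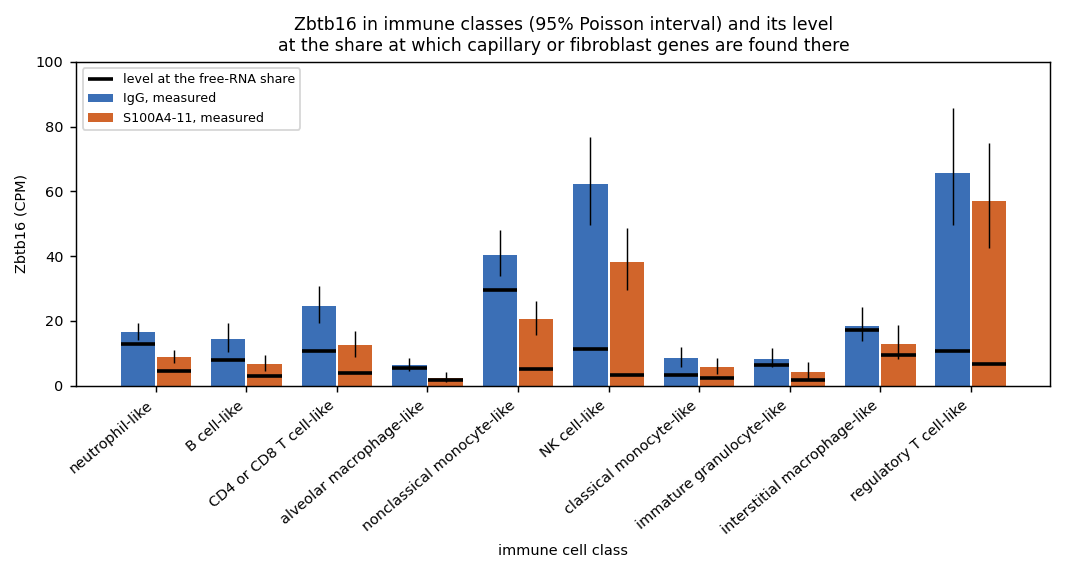
Zbtb16 (CPM, linear axis from 0) in the 10 leukocyte classes, IgG in blue and S100A4-11 in orange, with exact 95% Poisson intervals; black lines give the level at the share at which capillary or fibroblast genes are found in the class. Regulatory T cell-like and NK cell-like bars rise far above their lines, and those of neutrophil-like and interstitial macrophage-like cells do not.

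Fkbp5, unlike Zbtb16, was spread over leukocytes and stroma. Of the 18 compared classes it was highest in the IgG library in alveolar fibroblast-like (79.5 CPM, 70.7 to 89.1) and regulatory T cell-like cells (76.6 CPM, 59.0 to 97.8), which overlapped. It was at 47.5 to 59.4 CPM in adventitial fibroblast-like, NK cell-like, smooth muscle cell-like, alveolar macrophage-like, pericyte-like, large-vessel endothelial-like and interstitial macrophage-like cells, and lowest in immature granulocyte-like cells (8.82 CPM). In the S100A4-11 library adventitial fibroblast-like cells were first, at 65.2 CPM (47.7 to 86.9). Fkbp5 was called lower in 7 of 18 classes and higher in 0, and 16 of the ratios were below 1.

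The fall was largest in nonclassical monocyte-like cells, the patrolling monocytes of the vessel wall, from 41.1 to 17.3 CPM, 2.38-fold (1.72 to 3.32). Alveolar macrophage-like cells went from 52.1 to 28.7 CPM (1.81-fold, 1.47 to 2.25). General capillary endothelial-like cells went from 35.1 to 19.3 CPM (1.82-fold, 1.51 to 2.21), with ratios of 0.538 in cluster 0 and 0.655 in cluster 3. Alveolar fibroblast-like cells (79.5 and 50.2 CPM), regulatory T cell-like cells (76.6 and 47.0 CPM), classical monocyte-like cells (28.9 and 18.7 CPM) and aerocyte-like cells (15.1 and 9.64 CPM) were 1.55-fold to 1.63-fold lower. With every cell weighing the same the aerocyte-like ratio was 0.994, and with each library clustered alone the alveolar fibroblast-like ratio was 0.9497, neither called. With the cluster mix held, the fall was 1.35-fold in alveolar fibroblast-like and 1.23-fold in aerocyte-like cells. In cluster 20, the fibroblast cluster with few long-gene UMIs, the ratio was 0.940 (0.660 to 1.33). Long genes gave 9.97% and 9.84% of UMIs in alveolar macrophage-like cells and 9.41% and 9.61% in nonclassical monocyte-like cells of the IgG and S100A4-11 libraries. At 52.1 and 28.7 CPM, alveolar macrophage-like Fkbp5 stood beside a free RNA background of 1.01 and 0.452 CPM.

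Tsc22d3 was highest in B cell-like and CD4 or CD8 T cell-like cells and was also high in stroma. It was at 1224 CPM (IgG) and 1148 CPM (S100A4-11) in B cell-like cells, 763 and 785 CPM in CD4 or CD8 T cell-like cells and 627 and 533 CPM in NK cell-like cells. Alveolar fibroblast-like cells held 663 and 590 CPM and smooth muscle cell-like cells 574 and 605 CPM. It was lowest of the compared classes in immature granulocyte-like cells, at 115 and 123 CPM. Tsc22d3 was called lower in 4 of 18 classes and higher in 0. These were adventitial fibroblast-like cells (527 to 279 CPM, 1.89-fold, 1.61 to 2.22), type 2 alveolar epithelial-like cells (189 to 110 CPM, 1.72-fold), large-vessel endothelial-like cells (331 to 210 CPM, 1.58-fold) and general capillary endothelial-like cells (291 to 190 CPM, 1.53-fold, 1.44 to 1.63). The type 2 alveolar call ended with doublets kept (0.816) and the adventitial fibroblast-like call at Leiden resolution 0.5 (0.747). In clusters 0 and 3 of the general capillary class the ratios were 0.623 and 0.676. Aerocyte-like cells were at 362 and 310 CPM, a ratio of 0.857 (0.802 to 0.915). In B cell-like and CD4 or CD8 T cell-like cells, where the gene is highest, the ratios were 0.938 (0.898 to 0.979) and 1.03 (0.972 to 1.09). With the class mix held the ratio was 0.853, against 0.972 pooled.

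**Figure D4:**
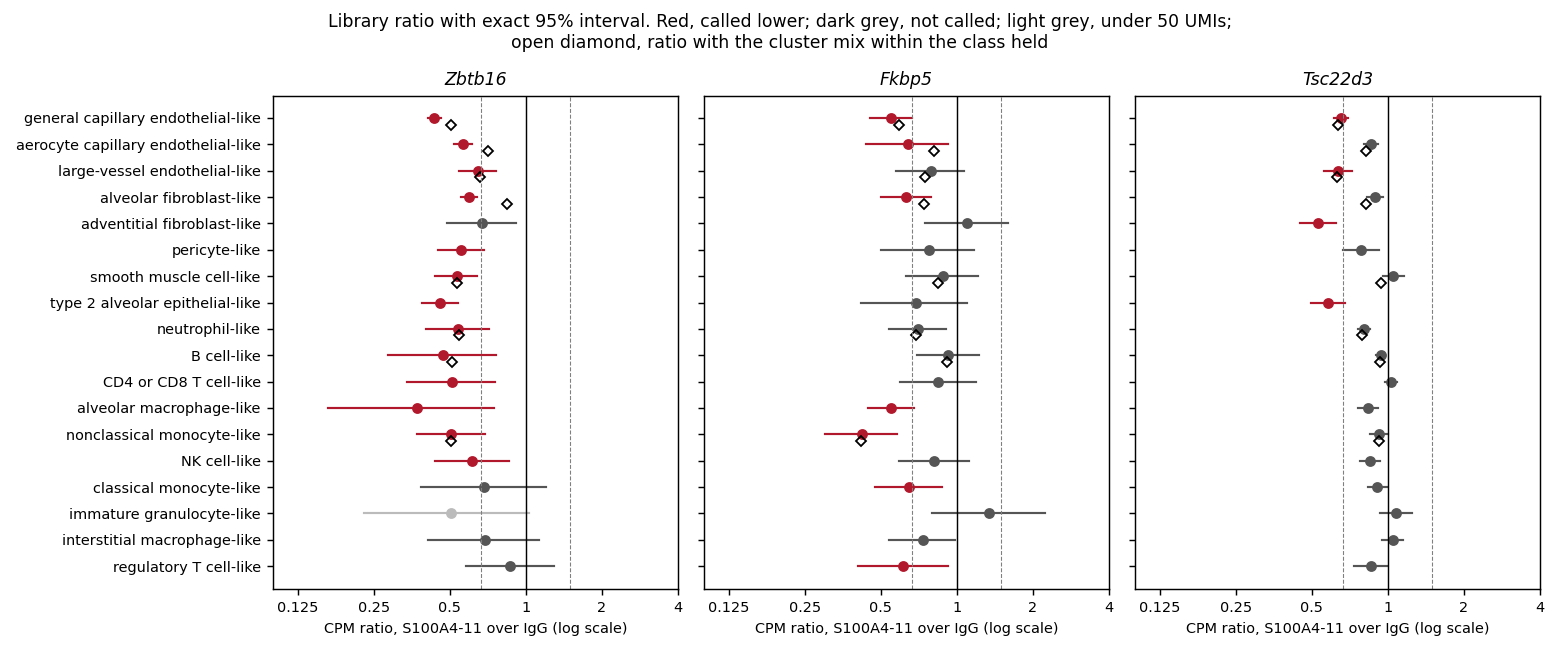
Ratio of CPM, S100A4-11 over IgG (log axis), of Zbtb16, Fkbp5 and Tsc22d3 in 18 cell classes with exact 95% intervals; red marks a call of lower, dark grey no call, light grey under 50 UMIs, and open diamonds the ratio with the cluster mix within the class held. The Zbtb16 diamonds of aerocyte-like (0.707) and alveolar fibroblast-like cells (0.841) lie right of the dashed 1.5-fold line, and that of general capillary endothelial-like cells (0.507) left of it.

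The receptor gene Nr3c1 was found in every class and was called in none of 18. It was highest in regulatory T cell-like cells, at 572 CPM in IgG and 447 CPM in S100A4-11, a ratio of 0.782 (0.683 to 0.895). Pericyte-like (256 and 217 CPM), alveolar fibroblast-like (231 and 195 CPM) and NK cell-like cells (225 and 193 CPM) followed, and immature granulocyte-like cells were lowest (60.7 and 49.8 CPM). The ratio was below 1 in 16 classes, with a median log2 ratio of -0.23. Hsd11b1 was a gene of alveolar fibroblast-like cells (1079 and 1282 CPM) and pericyte-like cells (348 and 422 CPM), with ratios of 1.19 (1.13 to 1.25) and 1.21 (1.06 to 1.38). Adventitial fibroblast-like cells held 156 and 145 CPM, and NK cell-like (131 and 114 CPM) and immature granulocyte-like cells (124 and 123 CPM) were the highest leukocytes. It was called lower in general capillary endothelial-like cells (6.96 and 2.29 CPM) and aerocyte-like cells (9.05 and 5.04 CPM). There it stood at 5.77% and 2.34% (general capillary) and 7.50% and 5.16% (aerocyte) of its level over all cells, and fibroblast genes at 6.35% and 5.82% and at 9.16% and 7.90% of theirs. The aerocyte-like call ended under several alternatives, among them doublets kept (0.589, 0.308 to 1.07). Its pooled ratio of 0.812 turned to 1.09 with the class mix held.

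Sgk1 was highest in alveolar macrophage-like (740 and 727 CPM) and NK cell-like cells (574 and 528 CPM), with ratios of 0.982 (0.938 to 1.03) and 0.919 (0.835 to 1.01). It was called lower in pericyte-like cells (148 to 66.9 CPM, 2.21-fold, 1.64 to 3.04), type 2 alveolar epithelial-like cells (51.0 to 23.7 CPM, 2.15-fold, 1.56 to 3.03) and adventitial fibroblast-like cells (70.1 to 45.3 CPM, 1.55-fold, 1.03 to 2.38). It was called higher in regulatory T cell-like cells (77.8 to 121 CPM, 1.55-fold, 1.13 to 2.15). With doublets kept the type 2 alveolar and regulatory T cell-like ratios were 0.824 and 1.27, and neither was called. The adventitial fibroblast-like call ended at Leiden resolution 0.5 (0.727). General capillary endothelial-like cells were at 158 and 136 CPM, a ratio of 0.861 (0.797 to 0.930). Cebpd was highest in smooth muscle cell-like (1696 and 1661 CPM) and adventitial fibroblast-like cells (1144 and 1059 CPM), and in general capillary endothelial-like cells it was at 750 and 743 CPM, a ratio of 0.990 (0.957 to 1.02). It was called lower in interstitial macrophage-like cells (173 to 105 CPM, 1.64-fold) and in regulatory T cell-like cells (53.8 to 12.3 CPM, 4.38-fold, 2.23 to 9.39). With doublets kept the interstitial macrophage-like ratio was 0.839, not called. In the regulatory T cell-like class the 10 neutrophil markers summed to 2183 CPM in IgG and 425 CPM in S100A4-11, with 10 and 9 of the 10 found, and neutrophil-like cells held Cebpd at 575 and 630 CPM. Their part in the Cebpd ratio was not tested.

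Of the 18 compared classes, Ddit4 was highest in regulatory T cell-like cells, at 156 and 233 CPM, just short of the call. The small basophil or mast cell-like cluster, with 48 and 52 cells and not compared, held 1541 and 1886 CPM. NK cell-like cells held 137 and 119 CPM. It was called lower in aerocyte-like cells (52.8 to 32.6 CPM, 1.62-fold, 1.33 to 1.97) and nonclassical monocyte-like cells (101 to 66.6 CPM, 1.52-fold, 1.27 to 1.82). With every barcode kept these ratios were 0.727 and 0.673, neither called. General capillary endothelial-like cells were at 75.6 and 51.7 CPM, a ratio of 0.684 (0.606 to 0.771).

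Read by class, 4 of the 8 genes were called lower in general capillary endothelial-like cells (background 4.5%) and 4 of 8 in aerocyte-like cells, where 3.21% of features were called lower. The count was 3 of 8 in type 2 alveolar epithelial-like cells (background 12.6%), 3 of 8 in nonclassical monocyte-like cells (4.41%), 2 of 8 in alveolar fibroblast-like cells (7.81%) and 2 of 7 tested in alveolar macrophage-like cells (3.02%). It was 2 of 8 in pericyte-like cells (2.81%), 2 of 7 in large-vessel endothelial-like cells (2.14%) and 2 of 7 in adventitial fibroblast-like cells (3.56%). In 7 more classes 1 gene was called lower, and in immature granulocyte-like cells 0 of 7. In regulatory T cell-like cells 2 of 7 were called lower and 1 higher (5.31% and 7.12%). Zbtb16, Fkbp5 and Tsc22d3 were called lower together in 1 class, general capillary endothelial-like cells.

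Across the 18 classes the levels of the genes were weakly correlated for most pairs. Over the 28 pairs, Pearson r of log2(CPM + 1) had a median of 0.14 (IgG) and 0.03 (S100A4-11), with 3 pairs above 0.5 in either library. These 3 pairs were Zbtb16 with Nr3c1 (0.63 and 0.64), Fkbp5 with Nr3c1 (0.59 and 0.56) and Zbtb16 with Cebpd (0.57 and 0.52). Among the 3 leading genes, r was 0.33 and 0.33 for Zbtb16 with Fkbp5, 0.46 and 0.39 for Fkbp5 with Tsc22d3, and 0.17 and 0.02 for Zbtb16 with Tsc22d3. Each gene's own pattern was close to itself in the other library, with r from 0.90 (Fkbp5) to 0.99 (Zbtb16). The points share libraries, scaling, depth and free RNA.

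**Figure D5:**
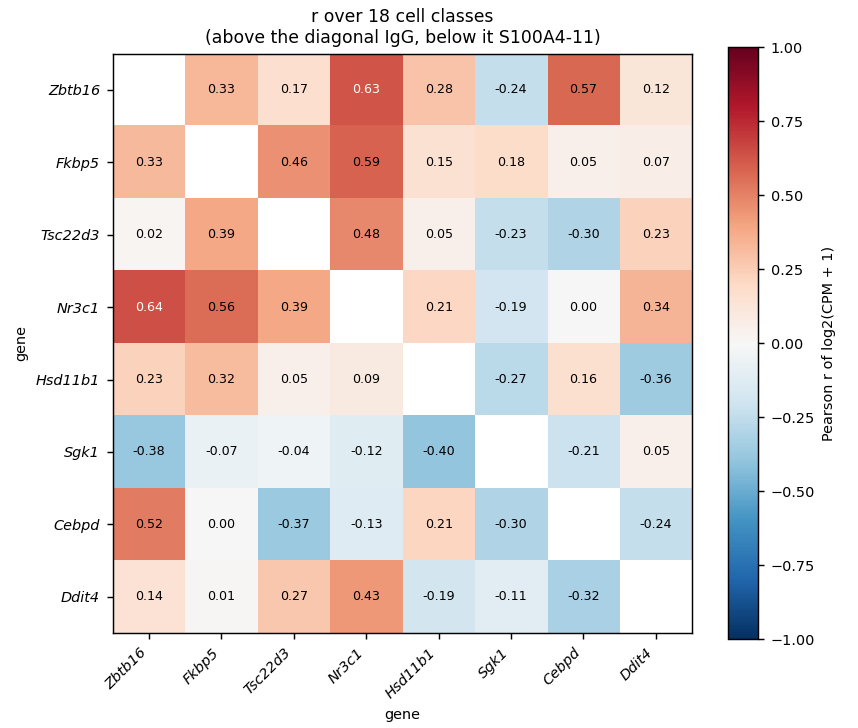
Pearson r of log2(CPM + 1) over 18 cell classes for each pair of the 8 genes, IgG above the diagonal and S100A4-11 below it, on a colour scale from -1 to 1. Zbtb16 with Nr3c1 is the highest pair (0.63 and 0.64).

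The library ratios of the 3 leading genes were weakly correlated from class to class. Over the classes with at least 20 UMIs of both genes, r of the log2 ratios was 0.14 for Zbtb16 with Fkbp5, 0.02 for Zbtb16 with Tsc22d3 and 0.05 for Fkbp5 with Tsc22d3, over 18 classes each. The highest of the 28 pairs were Tsc22d3 with Sgk1 (0.59) and Fkbp5 with Ddit4 (0.58), and the lowest was Zbtb16 with Cebpd (-0.46, rho -0.15), which turned to 0.07 over the 11 classes with at least 100 UMIs of both.

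Genes other than the 8 followed Zbtb16 far more closely over the classes. Of 7729 genes with at least 50 CPM in a class, Sept4, Nedd4, Nckap1, St5 and Sh3d19 had the highest r with Zbtb16 (0.94 to 0.95), and Nr3c1, the nearest of the 8, ranked 1781. For Fkbp5 the nearest included Pianp (0.87), Atp2b4, Dtx3 and Ebpl, with Nr3c1 at rank 650. For Tsc22d3 they were 4933406I18Rik (0.83), Birc2, Rnf2, Tmem123 and Pdcd4, with Fkbp5 at rank 1387.

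Within single alveolar fibroblast-like and general capillary endothelial-like cells, Zbtb16 and Fkbp5 met more often than their frequencies in the class would give. Other classes are not given here. After thinning alveolar fibroblast-like cells to 1000 UMIs, 35 of 624 IgG cells had both where 19.8 would be met if the genes were unrelated (1.77 times), and 11 of 390 S100A4-11 cells where 6.46 would (1.70 times). In general capillary endothelial-like cells the counts were 38 against 24.9 and 10 against 7.77. For Zbtb16 and Tsc22d3 the counts lay below those expected: 85 against 115 and 26 against 40.9 in alveolar fibroblast-like cells, and 119 against 148 in IgG cells of the general capillary endothelial-like class. In S100A4-11 cells of that class 37 had both, 0.925 of the number expected. Shallower cells were left out, 147 and 129 of the fibroblast class and 194 and 170 of the capillary class. In the IgG library, cluster 31 held Zbtb16, Fkbp5 and Tsc22d3 at 2001, 165 and 290 CPM, and cluster 20 at 282, 39.8 and 847 CPM. In the capillary class, cluster 3 held them at 987, 49.3 and 215 CPM, and cluster 0 at 192, 28.8 and 325 CPM. The part of these differences between clusters in the counts was not tested.

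Other genes of the pathway were read from 2 lists, chosen with results of these data known. The share of all features called in the class is given as background. Receptor machinery (chaperones and cofactors) had 17 tested members in general capillary endothelial-like cells, with 0 called in either direction (background 4.5% lower and 1.1% higher). Their median log2 ratio was -0.22, beside -0.02 over all features. Hsp90aa1, a chaperone of the receptor, was at 514 and 344 CPM there. In aerocyte-like cells 3 of 17 were lower (background 3.21%), with a median of -0.24 beside -0.01. They were Hsp90aa1 (584 to 341 CPM), the co-chaperone Dnaja1 (564 to 344 CPM) and Hsp90ab1 (1872 to 1238 CPM), 1.71-fold, 1.64-fold and 1.51-fold lower. In alveolar fibroblast-like and regulatory T cell-like cells 1 of 17 and 1 of 16 were called (background 7.81% and 5.31% lower). In both it was Nrip1, a nuclear receptor corepressor, lower by 1.74-fold and 1.65-fold.

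Of other glucocorticoid-induced genes, 24 were tested in general capillary endothelial-like cells. Of these 6 were lower and 1 higher (background 4.5% and 1.1%), with a median of -0.29 beside -0.02. Cdkn1a, an inhibitor of the cell cycle, went from 153 to 91.0 CPM (1.68-fold lower) and Dusp1, a phosphatase of MAP kinases, from 614 to 384 CPM (1.60-fold lower), whereas the chemokine receptor Cxcr4 rose from 31.2 to 52.0 CPM (1.67-fold). In aerocyte-like cells 1 of 23 was lower and 1 higher (background 3.21% and 1.21%), with a median of -0.24 beside -0.01. Large-vessel endothelial-like cells had 1 lower and 2 higher of 22 (background 2.14% and 2.05%), with a median of -0.08 beside -0.02. In alveolar fibroblast-like cells 2 of 27 were lower (background 7.81%, median -0.25 beside -0.05), and Mt1, a metallothionein, was at 572 and 721 CPM. In alveolar macrophage-like and nonclassical monocyte-like cells, where Fkbp5 fell, 1 of 25 and 0 of 20 were lower (background 3.02% and 4.41%) and 0 higher. The medians were -0.06 and -0.03 beside -0.03 and -0.05. In regulatory T cell-like cells 5 of 18 were lower (background 5.31%). Among them was Il1r2, the decoy receptor of interleukin 1 (86.2 to 8.95 CPM), which moved beside the neutrophil markers given above.

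Genes that respond to tissue dissociation, from a list chosen with results of these data known, differed by class. Percentages in parentheses are the shares of all features called in the direction named. The median log2 ratio of all features was -0.12 in type 2 alveolar epithelial-like cells and ran from -0.05 to 0.05 in the other classes given. In general capillary endothelial-like cells 7 of 19 were lower (4.5%) and 0 higher (1.1%; median -0.44), with Fosb at 79.7 and 27.8 CPM and Atf3 at 416 and 206 CPM. In aerocyte-like cells 10 of 19 were lower (3.21%, median -0.65), and in alveolar fibroblast-like cells 7 of 19 (7.81%, median -0.46). Adventitial fibroblast-like cells had 4 of 20 lower (3.56%, median -0.37) and type 2 alveolar epithelial-like cells 3 of 19 (12.6%, median -0.20). Pericyte-like cells had 0 of 19 lower (2.81%, median -0.04) and smooth muscle cell-like cells 1 of 20 (5.34%, median 0.22). Large-vessel endothelial-like cells had 1 lower and 1 higher of 19 (2.14% and 2.05%, median 0.06). In regulatory T cell-like cells 6 of 18 were lower (5.31%, median -0.31) and in neutrophil-like cells 5 of 20 (5.38%, median 0.02). In alveolar macrophage-like cells 2 of 20 were lower (3.02%, median -0.17) and in nonclassical monocyte-like cells 0 of 20 (4.41%, median 0.12). Their part in the ratios of the 8 genes was not tested. Inflammatory genes that glucocorticoids repress were lower for 3 and higher for 1 of 10 in general capillary endothelial-like cells (4.5% and 1.1%), with Cxcl2 at 242 and 82.7 CPM. They were lower for 7 of 10 in alveolar fibroblast-like cells (7.81%). B cell-like cells had 5 lower and 2 higher of 9 (3.68% and 1.24%). CD4 or CD8 T cell-like cells had 5 and 1 of 8 (2.66% and 1.65%). For regulatory T cell-like cells it was 5 and 2 of 9 (5.31% and 7.12%), and for smooth muscle cell-like cells 4 and 1 of 11 (5.34% and 2.34%). Summed over the compared classes, 41 of 168 were lower and 26 higher. In large-vessel endothelial-like cells 4 of 7 were higher and 1 lower (2.05% and 2.14%), and in pericyte-like cells 3 of 6 higher and 0 lower (2.19% and 2.81%). In type 2 alveolar epithelial-like cells 5 of 12 were higher and 2 lower (2.11% and 12.6%). The 10 neutrophil markers summed to 1117 and 496 CPM in general capillary endothelial-like cells and to 2373 and 1312 CPM in alveolar fibroblast-like cells, with 10 of 10 found in each library, and their part in these counts was not tested. Clock genes, which glucocorticoids help to set, were called in neither direction in general capillary endothelial-like cells (13 tested, median -0.18 beside -0.02). Dbp and Nr1d1 were at 157 and 188 CPM and at 97.9 and 110 CPM. Hypoxia genes, which share inducers with Ddit4, were called in neither direction in these cells (11 tested, median 0.02 beside -0.02).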

How the data were processed

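Lung cells of 1 IgG and 1 S100A4-11 library were captured with a 10x Genomics 5' kit, per the labels' protocols. The deposited values are whole UMI counts per gene and barcode, per the file headers, made with Cell Ranger 7.1.0 on build mm10, per the submitters' processing notes. The matrices held 14411 and 12506 barcodes with 85458143 and 64695542 UMIs. Barcodes with under 200 genes or over 15% mitochondrial UMIs were removed, and Scrublet in Scanpy 1.11.5 removed 627 and 615 doublets (4.39% and 4.97%). Both libraries were clustered together (2000 variable genes without the 8 genes and the listed genes, 30 components, 15 neighbours, Leiden resolution 1), and clusters were named from markers by a rule set after the clusters had been seen. The 8 genes, the lists and the alternatives were chosen with earlier results of these data known. UMIs were summed by class and library. Levels carry exact Poisson intervals, and ratios exact conditional binomial intervals. The latter were tried only on simulated Poisson counts, the model they assume, so that trial cannot show their cover of variation between cells. With 1 library in a group no test was possible. Named genes were the 8 genes, from each list up to 4 genes with at least 50 CPM whose interval bound lay farthest from 1, and the 5 genes nearest in pattern. One gene that this rule named is not reported here. TMM scaling used edgeR 4.0.16. Alternatives with another filter, clustering, weighting or scaling, and those added after seeing the data, are given beside the results or in the closing section. Small classes (type 1 alveolar, basophil or mast, lymphatic and airway) and 3 unnamed clusters (538 and 205 cells) were not compared. No correction for free RNA was made except where stated.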

Additional observations from a re-analysis of the deposited data

Results flagged for a closer look

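Sgk1 went in opposite directions between classes. Its ratio was 0.465 in type 2 alveolar epithelial-like, 0.452 in pericyte-like and 0.646 in adventitial fibroblast-like cells, against 1.55 in regulatory T cell-like cells. With 1 library in a group the difference was not tested. The type 2 alveolar ratio was 0.824 with doublets kept, and the regulatory T cell-like ratio 1.27, neither called. Without the 5 cells with most Sgk1 UMIs the regulatory T cell-like ratio was 1.498, also not called.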

How the results depend on the processing

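No paired analysis was possible because each group had 1 library, and no replicate could be left out. Of 34 called ratios, 34 kept their call under median-of-ratios scaling, 33 under TMM, 27 with doublets kept and 29 without the 5 cells with most UMIs. Of those still given, 25 of 31 kept it with every barcode, 27 of 29 with at least 500 genes, 20 of 26 at Leiden resolution 0.5, 28 of 31 at resolution 2 and 22 of 29 with each library clustered alone. Of the alternatives added after seeing the data, holding the cluster mix kept 13 of 18 calls, leaving out cluster 3, clusters 1 and 2, or clusters 28 and 31 kept 5 of 10, and subtracting free RNA kept 2 of 6. Immature granulocyte-like, regulatory T cell-like and adventitial fibroblast-like cells had no class under several settings, nor did nonclassical monocyte-like and pericyte-like cells at resolution 0.5. With the class mix held, the Zbtb16 ratio (0.5228) was 0.5497 at resolution 0.5, 0.7379 with each library alone, 0.5656 with cells weighed equally, 0.487 without the top 5 cells and 0.6298 with cluster mix held. That of Fkbp5 was 0.7383 with each library alone, and its classes called lower were 4 at resolution 0.5. That of Tsc22d3 (0.8533) was 0.8344 at resolution 2 and with cluster mix held, 0.829 with cells weighed equally, 0.8709 with TMM and 0.8726 with median-of-ratios scaling. In alveolar fibroblast-like cells the ratio turned at resolution 0.5 for Zbtb16 (1.964, 38 UMIs) and Fkbp5 (1.785, 9 UMIs), and for Zbtb16 with each library alone (1.561). With free RNA subtracted Zbtb16 turned in neutrophil-like (1.155) and nonclassical monocyte-like cells (1.422). Over clusters, r was 0.4358 for Zbtb16 with Fkbp5 (S100A4-11), -0.1598 and -0.2383 for Zbtb16 with Tsc22d3, and 0.1461 and 0.09841 for Fkbp5 with Tsc22d3 (IgG and S100A4-11). Without a log, r was 0.03627 for Zbtb16 with Tsc22d3 (IgG) and 0.2082 and 0.1987 for Fkbp5 with Tsc22d3, and with log2(CPM + 10) it was -0.01751 for Zbtb16 with Tsc22d3 (S100A4-11). Over ratios with at least 100 UMIs, r was 0.258 for Zbtb16 with Fkbp5, -0.001267 for Zbtb16 with Tsc22d3 and -0.1524 for Fkbp5 with Tsc22d3. Summed over classes, a minimum of 200 UMIs gave 7 lower calls for receptor machinery (main 12), 5 higher and 13 lower for induced genes (15 and 30), 12 and 24 for inflammatory genes (26 and 41), 0 and 4 for clock genes (2 and 14) and 1 and 0 for hypoxia genes (6 and 5). A minimum of 20 gave 1 higher call for machinery (main 0) and 9 lower for hypoxia. The cause of these changes was not tested.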
